A study of Homo sapiens with 6 samples.

Results

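In breast cancer cells, 4 genes that had very few reads in normoxia and many in hypoxia are described, TMEM45A, BPIFB2, FGD5 and MAP7D2. They are 4 of the 27754 genes in the count files, taken by gene symbol. They were chosen by these same read counts, low in every normoxia library and high in every hypoxia library, so their own difference between the conditions is given as a description and without a test. Tests are given for other genes, which are their gene families, their neighbours on the chromosome, a list of known hypoxia targets and lists of cell type markers. These lists were also made with earlier results of these data known, and some of their genes share the low normoxia counts.

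The T47D line, from a human breast cancer, is of luminal kind and carries estrogen and progesterone receptors. RNA was sequenced from 3 libraries of T47D cells in ordinary culture (normoxia, labelled 20% O2) and 3 libraries of T47D cells from a low-oxygen chamber (hypoxia, labelled 0.5% O2 for 48 h). All 6 libraries came from the same line, grown in RPMI with serum, with no other treatment. The text of the study gives another oxygen percentage for this hypoxia than the labels, and the labels are followed here. The labels give no time for the normoxia cells. They number the libraries 1 to 3 in each condition without naming separate cultures, while a figure legend of the study calls its data independent experiments. The p-values below measure the spread between these libraries.

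Total counts ran from 32989104 to 40943424 in the normoxia libraries and from 34640756 to 89883409 in the hypoxia libraries. Levels are given in CPM, the count of a gene relative to the total of its library, after scaling with edgeR's TMM factors. A count of 3 was taken as the floor in each library, which corresponded to 0.076 to 0.0969 CPM in normoxia and to 0.0328 to 0.082 CPM in hypoxia. Floors and intervals take in counting error alone and leave out the spread between libraries. Intervals on summed counts treat the reads of all summed libraries as 1 sample. The reads carry no molecular identifiers and need not stem from separate molecules, so even the counting error may be understated. Values of single libraries are listed below in the order of replicates 1, 2 and 3. The 2 libraries numbered 3 stood apart from the other libraries. For example, the counts of RPS6KA3 were 1, 0 and 13 in normoxia and 0, 2 and 24 in hypoxia. Those of MAP7D3 were 0, 0 and 2 in normoxia, which is under the floor, and 0, 0 and 21 in hypoxia. Values without these 2 libraries are therefore given beside those of the 4 genes. The luminal identity of the cells was checked on 9 markers, which were all well above the floor. Their summed level was 14000 to 18100 CPM in normoxia and 10200 to 13500 CPM in hypoxia.

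When oxygen is plentiful, prolyl hydroxylases mark the alpha subunits of the hypoxia-inducible factors (HIF) for destruction. When it is scarce, the alpha subunits persist, pair with the beta subunit ARNT and bind hypoxia response elements, short DNA sites whose core reads ACGTG or GCGTG. Well known targets of this pathway serve glycolysis, pH control, blood vessel growth and the feedback on HIF itself. The 4 genes come from unrelated families. TMEM45A encodes a protein with several membrane spans that is known, among other tissues, from keratinizing epidermis. BPIFB2 encodes a secreted protein of the BPI fold family, whose members bind lipids and are found in the secretions of airways and mouth. FGD5 encodes an exchange factor that activates the small GTPase CDC42 and is known from the endothelium of blood vessels. MAP7D2 encodes a microtubule-associated protein of the MAP7 family, which recruits the motor kinesin-1 and is known from neurons.

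The counted exons of TMEM45A lay on chromosome 3, at chr3:100211463-100296296 on the plus strand of GRCh37, in 6 merged exons with 1575 bases. BPIFB2 was counted at chr20:31595384-31611515 on the plus strand, in 16 merged exons with 1920 bases. FGD5 was counted at chr3:14860469-14976072 on the plus strand, in 20 merged exons with 5897 bases. MAP7D2 was counted at chrX:20024831-20135114 on the minus strand, in 18 merged exons with 4259 bases. By the GENCODE annotation, coding sequence made up 52.6% of the counted bases of TMEM45A, 71.6% of BPIFB2, 76.2% of FGD5 and 54.4% of MAP7D2, and the remainder was untranslated or noncoding. No counted exon base of the 4 genes was shared with another gene in the files, on either strand.

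The stretches just upstream of the 4 genes are shown because the genes share a response to low oxygen and these stretches can be read for the letters of the hypoxia response element. The bases are those of the RefSeq promoter windows (table built on GRCh38.p14), each of which matched GRCh37 once at the gene. A window holds 250 bases before and 50 after an annotated start. The upstream part that holds no exon base of the gene, in the count files or in GENCODE, is printed 5′ to 3′ along the gene. The positions in GRCh37 are chr3:100211213-100211462 for TMEM45A and chr20:31595260-31595383 for BPIFB2. For FGD5 the positions are chr3:14860219-14860462, and for MAP7D2 they are chrX:20135115-20135275 on the minus strand. The FGD5 stretch lies within an intron of the GENCODE transcript FGD5-207, which starts farther upstream. Capitals mark ACGTG and GCGTG on either strand, so that CACGT and CACGC are their reverse complements.
TMEM45A: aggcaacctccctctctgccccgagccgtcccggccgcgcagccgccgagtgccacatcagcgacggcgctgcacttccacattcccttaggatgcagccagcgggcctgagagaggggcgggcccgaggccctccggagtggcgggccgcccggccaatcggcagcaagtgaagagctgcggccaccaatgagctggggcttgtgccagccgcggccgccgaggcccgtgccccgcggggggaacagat
BPIFB2: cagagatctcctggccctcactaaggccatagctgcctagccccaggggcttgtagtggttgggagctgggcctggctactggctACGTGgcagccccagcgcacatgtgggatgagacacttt
FGD5: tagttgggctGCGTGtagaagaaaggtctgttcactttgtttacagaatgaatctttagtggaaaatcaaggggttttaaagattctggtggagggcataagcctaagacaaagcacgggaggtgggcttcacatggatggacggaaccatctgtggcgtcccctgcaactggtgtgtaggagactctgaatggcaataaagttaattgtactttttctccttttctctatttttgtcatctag
MAP7D2: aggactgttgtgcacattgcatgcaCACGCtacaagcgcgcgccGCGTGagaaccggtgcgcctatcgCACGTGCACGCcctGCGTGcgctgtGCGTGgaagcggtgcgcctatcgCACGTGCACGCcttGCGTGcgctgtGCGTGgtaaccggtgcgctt

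In the whole windows, the 4 genes differed in these letters. The window of TMEM45A held neither ACGTG nor GCGTG. That of BPIFB2 held ACGTG once, at positions -165 to -161 from the start, and FGD5 held GCGTG once, at positions -240 to -236. The first of 2 MAP7D2 windows held ACGTG 6 times and GCGTG 12 times over both strands, of which 4 and 8 lay in the printed part. All 6 of the ACGTG matches came from 3 copies of the palindrome CACGTG, each read on both strands, and 2 of these copies lie in the printed part. Read along the gene, ACGTG began at -181, -133 and -84. In the printed part the copies sit in near-identical repeats that also hold GCGTG. The matches are thus not independent of each other. The second MAP7D2 window, which lies downstream and is not printed, held ACGTG once and GCGTG once. Among all 35116 windows, 21.4% held ACGTG and 36.5% held GCGTG at least once. At least 6 matches to ACGTG were found in 0.134% of windows, and at least 12 matches to GCGTG in 0.0171%. Among the 5002 windows of genes called higher in hypoxia by the test described below, 23.5% held ACGTG and 44.5% held GCGTG. Among the 16338 windows of all tested genes the shares were 25% and 47.5%. A match is a run of letters and not a bound site, and a window without one says nothing of sites elsewhere.

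Base composition also differed between the windows. G and C made up 72.3% of the TMEM45A window and 71.7% of the first MAP7D2 window, against a median of 58.7% over all windows. The share was 59.3% for BPIFB2 and 45.3% for FGD5. The ratio of observed to expected CpG dinucleotides was 0.82 for TMEM45A, 0.19 for BPIFB2, 0.39 for FGD5 and 1.42 and 0.87 for the first and second windows of MAP7D2, with a median of 0.58 over all windows. BPIFB2 was the only one of the 4 with the letters TATAAA in its window, which 11.5% of all windows held.

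TMEM45A was covered by 24, 18 and 13 counts in normoxia and by 896, 723 and 2192 counts in hypoxia. In CPM these were 0.608, 0.484 and 0.42 in normoxia and 22.1, 19.8 and 24 in hypoxia. The groups were far apart, and the 3 hypoxia libraries lay close together, with a coefficient of variation of 9.63%. All 3 normoxia libraries were above the floor, so TMEM45A was low in normoxia and not silent. Within same-numbered pairs of libraries, the fold of hypoxia over normoxia was 36.4 (95% interval 24.3 to 57.1), 40.9 (25.7 to 69.3) and 57.1 (33.3 to 107). These intervals are exact conditional binomial intervals on the counts. Over the summed counts the fold was 44.3 (33.9 to 58.9), and without the libraries numbered 3 it was 38.4 (28.3 to 53.4). In bulk RNA, more transcript per cell and more cells with the transcript cannot be told apart.

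BPIFB2 was the lowest of the 4 genes in both conditions. Its normoxia counts of 0, 2 and 2 were all under the floor, and its hypoxia counts were 133, 112 and 649. The hypoxia levels were 3.29, 3.06 and 7.1 CPM (mean 4.48 ± 2.27, SD, n = 3). Replicates 1 and 2 were alike, and replicate 3 was the high one, which gave a coefficient of variation of 50.6%. Set against a floor of 3 counts in normoxia replicate 1, hypoxia replicate 1 was at least 43.2-fold higher. The second pair gave a fold of 57 (15.4 to 476) and the third 110 (30.3 to 909), each on 2 normoxia counts. The summed counts were 4 and 894, a fold of 143 (55.6 to 525), and without the libraries numbered 3 they were 2 and 245, a fold of 122 (33.4 to 1012). The fitted log2 fold change of BPIFB2 was 6.82. It was 6.2 without normoxia replicate 1 and 5.82 with a prior count of 2 in place of edgeR's default, so its size rests on very few normoxia reads.

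The counts of FGD5 were 16, 4 and 3 in normoxia and 947, 663 and 2004 in hypoxia. This corresponded to 0.405, 0.108 and 0.0969 CPM in normoxia and to 23.4, 18.1 and 21.9 CPM in hypoxia. Normoxia replicate 1 held most of the normoxia reads, replicate 3 was at the floor, and the hypoxia libraries varied little (coefficient of variation 12.9%). The fold was 57.7 (35.4 to 101) in the first pair, 169 (65.6 to 621) in the second and 226 (77.3 to 1098) in the third. Summed counts of 23 and 3614 gave a fold of 100.4 (66.8 to 159), and 80.1 (51.7 to 132) without the libraries numbered 3. Its fitted log2 fold change of 6.62 became 7.64 when normoxia replicate 1 was left out.

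For MAP7D2, normoxia gave 13, 10 and 3 counts and hypoxia gave 679, 828 and 1462. The levels were 0.329, 0.269 and 0.0969 CPM in normoxia and 16.8, 22.6 and 16 CPM in hypoxia. Hypoxia replicate 2 was the highest here, whereas replicate 3 was the lowest, unlike for BPIFB2. The fold was 50.9 (29.6 to 96.2) in the first pair, 84.2 (45.6 to 176) in the second and 165 (56.4 to 801) in the third. The summed fold was 73 (49.7 to 112), and 65.2 (43.3 to 103) without the libraries numbered 3.

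**Figure D1:**
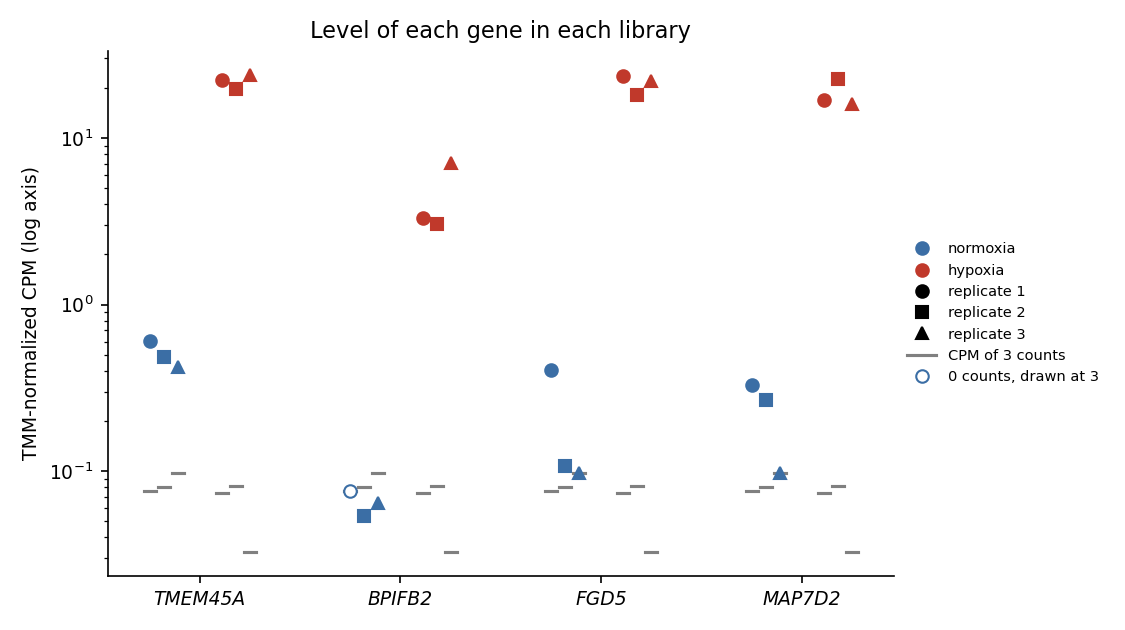
Level of TMEM45A, BPIFB2, FGD5 and MAP7D2 in each library, in TMM-normalized CPM on a log axis, with a symbol for each replicate and a grey bar at the level of 3 counts in that library. The hypoxia libraries lie at 3.06 CPM or more and the normoxia libraries at 0.608 CPM or less, and the BPIFB2 library with 0 counts is drawn open at the level of 3 counts.

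The 3 pairs of each gene had overlapping intervals, and the pair numbered 3 gave the highest ratio for each of the 4 genes, leaving aside the first pair of BPIFB2, which has a lower bound only. Normoxia replicate 3 was the shallowest library and hypoxia replicate 3 the deepest. Of the 12 values of the 4 genes in normoxia libraries, 7 were above the floor of 3 counts. The lowest hypoxia level divided by the highest normoxia level, with normoxia levels under the floor set to it, was 48.6 for MAP7D2, 44.7 for FGD5, 32.5 for TMEM45A and 31.6 for BPIFB2. Over all 27754 genes, 11 had such a ratio of at least 30, and the 4 genes ranked 3, 4, 8 and 10. The others were TGFBI with 55.6, PNMA2 with 50.1, CYP26A1 with 41.5, PTGS1 with 40.1, BEST1 with 33.4, IGFBP3 with 32.5 and HEPHL1 with 30.1. Since the 4 genes were chosen by these counts, their ranks describe the choice.

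**Figure D2:**
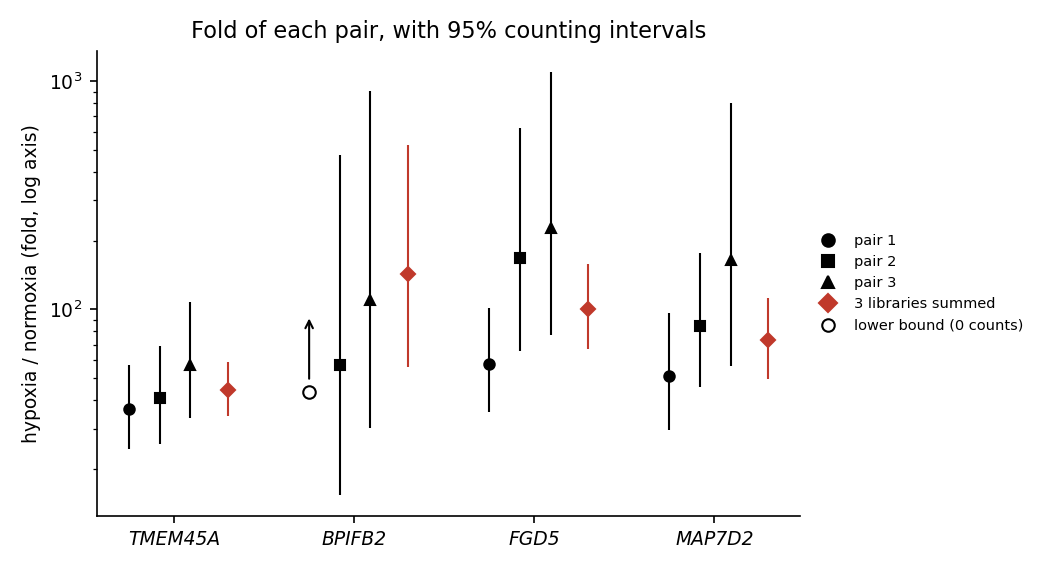
Fold of hypoxia over normoxia on a log axis for each same-numbered pair of libraries (black) and for the 3 libraries summed (red), with exact 95% intervals that cover counting error only. The summed folds run from 44.3 for TMEM45A to 143 for BPIFB2, and the open circle for BPIFB2 is a lower bound against 3 counts.

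The label near-silent was checked against all genes. At or under 0.5 CPM in all 3 normoxia libraries were 13323 of 27754 genes, of which 5540 had no count in any library. Of the 13323, 214 (1.61%) reached 1 CPM in all 3 hypoxia libraries and 16 (0.12%) reached 5 CPM. FGD5 and MAP7D2 were among the 16. TMEM45A was outside this limit through normoxia replicate 1, and BPIFB2 stayed under 5 CPM in hypoxia replicates 1 and 2. At 10 CPM, 3 genes remained, FGD5, MAP7D2 and CYP26A1.

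**Figure D3:**
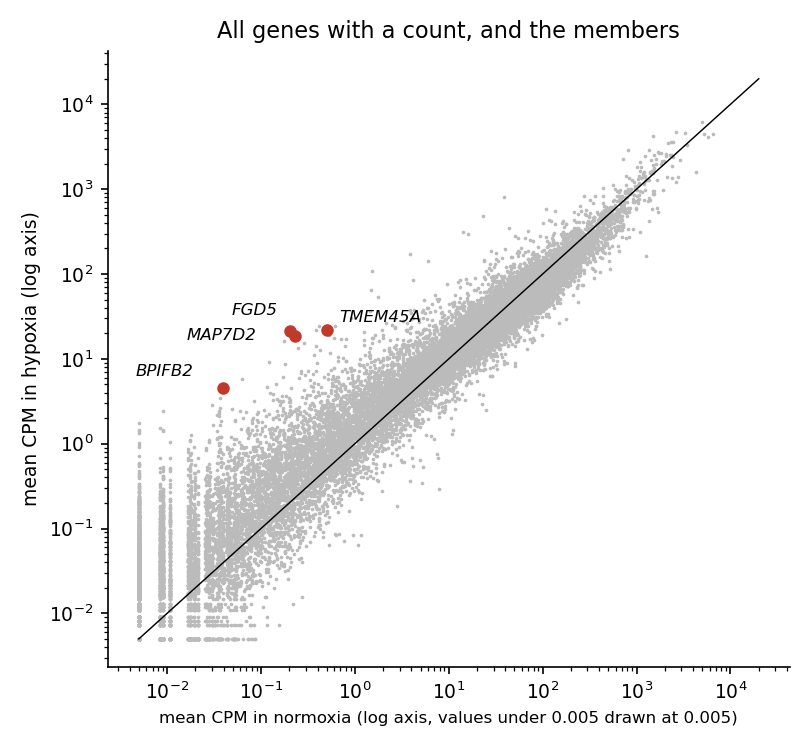
Mean CPM in hypoxia against mean CPM in normoxia on log axes for all genes with a count, each from 3 libraries, with the line of equal levels; values under 0.005 are drawn at 0.005. The 4 genes (red) lie far above the line, with normoxia means from 0.0395 to 0.504 CPM and hypoxia means from 4.48 to 22 CPM. They are not alone there, since 85 tested genes, the 4 included, had a log2 fold change of at least 5.

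To compare levels between genes, CPM was divided by the counted exon length in kilobases. TMEM45A then stood first in hypoxia, with 14.1, 12.5 and 15.2 CPM per kilobase in replicates 1, 2 and 3, above all libraries of the other 3 genes. MAP7D2 had 3.94, 5.31 and 3.76 CPM per kilobase, FGD5 had 3.97, 3.07 and 3.72, and BPIFB2 had 1.71, 1.59 and 3.7. The libraries of MAP7D2 overlapped with those of FGD5, and those of FGD5 with those of BPIFB2, the latter through BPIFB2 in replicate 3 alone, a library that stood apart. All 3 libraries of MAP7D2 lay above all 3 of BPIFB2. In normoxia TMEM45A was again first (0.32 ± 0.0607 CPM per kilobase, SD, n = 3), and MAP7D2 (0.0544 ± 0.0283), FGD5 (0.0345 ± 0.0297) and BPIFB2 (0.0205 ± 0.018) overlapped. Percentiles were taken over all 27754 genes, of which 5540 had no count in any library, so a middle percentile can still be a very low level. TMEM45A moved from percentile 49.6 to 82.2 on this scale. MAP7D2 moved from 41.3 to 66, FGD5 from 39.5 to 63.9 and BPIFB2 from 37.2 to 59.5. Even in hypoxia, many genes thus had a higher level per kilobase than MAP7D2, FGD5 and BPIFB2.

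Likeness of pattern was measured as the root mean square difference of log2 CPM (prior count 2) over the 6 libraries, which takes in both level and change. FGD5 and MAP7D2 were each other's nearest among all tested genes, at 0.53 log2 units. Next to FGD5 came CYP26A1 (0.7) and BEST1 (0.72), and next to MAP7D2 came CYP26A1 (0.55) and LOC105370526 (0.56). PTGS1, which encodes a prostaglandin synthase, was nearest to TMEM45A at 0.26, with 22, 13 and 10 counts in normoxia and 905, 891 and 2346 in hypoxia. BEST1 (0.42) and SCNN1G (0.46) followed. BPIFB2 had no such close gene, and the nearest were SYT11 (0.76), SLC28A1 (0.78) and MMP13 (0.79). TMEM45A was 1.04 log2 units from FGD5 and 0.89 from MAP7D2, and BPIFB2 was 2.15 to 2.69 from the other 3.

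Genes outside the 4 were tested by quasi-likelihood in edgeR, over all 6 libraries, with Benjamini-Hochberg adjustment across the 15657 genes that passed the filter on low counts. At an adjusted p under 0.05, 4754 genes were higher in hypoxia (30.4% of those tested) and 4537 were lower (29%). With upper-quartile scaling the split was 5959 higher and 3270 lower, and the median log2 fold change of all tested genes moved from 0.03 to 0.19. The fitted log2 fold changes of the 4 genes, given here as a description, were 5.43 for TMEM45A, 6.82 for BPIFB2, 6.62 for FGD5 and 6.25 for MAP7D2, which ranked 56, 24, 25 and 30 among the tested genes.

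Of 21 counted relatives of the 4 genes, 9 were tested. Of these, 3 were higher in hypoxia, 3 lower and 3 not called, near the shares of all tested genes (30.4% and 29%). The 4 genes were chosen for their pattern. Only 0.12% of genes at or under 0.5 CPM in normoxia reached 5 CPM in hypoxia. That the relatives lack this pattern is therefore no result about the families. The median log2 fold change of the 9 was -0.01. The relatives were thus either expressed in both conditions or had few reads in both.

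TMEM45B, the relative of TMEM45A, had 1016, 1333 and 1067 counts in normoxia and 3509, 3164 and 9852 in hypoxia. Its level rose from 32 ± 5.47 to 93.7 ± 12.2 CPM (SD, n = 3), and its log2 fold change was 1.55 (SE 0.15, adjusted p = 0.000176). TMEM45B was thus well expressed in normoxia, where TMEM45A was low. Per kilobase, its level was 15.3 CPM in normoxia and 44.8 CPM in hypoxia.

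The BPI fold family holds bactericidal and lipid-transfer proteins. Of 12 relatives of BPIFB2, 2 were tested. PLTP, the phospholipid transfer protein of plasma, rose from 2.2 to 5.82 CPM (log2 fold change 1.41, SE 0.25, adjusted p = 0.00222), with 91, 87 and 61 counts in normoxia and 199, 165 and 735 in hypoxia. LBP, which binds lipopolysaccharide, had 2, 28 and 9 counts in normoxia and 29, 21 and 55 in hypoxia and did not pass (log2 fold change 0.79, SE 0.64, adjusted p = 0.32). BPI, BPIFA1 and BPIFA3 had no counts in any library. The other 7 had at most 21 counts in a library, and the highest of these was BPIFB1, with 3, 0 and 5 counts in normoxia and 9, 4 and 21 in hypoxia. BPIFB2, which was chosen for its counts, had many more reads in hypoxia than the other BPIF genes.

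The FGD family of CDC42 exchange factors went both ways. FGD3 fell from 20.4 to 8.44 CPM (log2 fold change -1.26, SE 0.17, adjusted p = 0.000584) and FGD6 from 12.6 to 8.22 CPM (-0.62, SE 0.11, adjusted p = 0.00202). FGD4 rose from 21.2 to 28.1 CPM (0.41, SE 0.1, adjusted p = 0.0101). FGD1 passed as lower with TMM scaling (-0.27, adjusted p = 0.0224) but not with upper-quartile scaling (-0.11, adjusted p = 0.259). Its call was also lost without normoxia replicate 1 or 2 or hypoxia replicate 1 or 2 (adjusted p from 0.0535 to 0.0949). FGD2 was not tested, with 0, 0 and 1 counts in normoxia and 3, 4 and 14 in hypoxia. In hypoxia, the level of FGD5 per kilobase (3.59 CPM) lay near that of FGD4 (3.13 CPM) and under that of FGD1 (9.6 CPM).

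In the MAP7 family of microtubule-associated proteins, MAP7 went from 46 to 45.6 CPM (log2 fold change -0.01, SE 0.09, adjusted p = 0.936) and MAP7D1 from 75 to 71.6 CPM (-0.07, SE 0.17, adjusted p = 0.762). Neither passed the test. MAP7D3 was seen only in the libraries numbered 3 and was not tested. MAP7D2 was chosen for its low level in normoxia and high one in hypoxia, so the contrast with these relatives describes the choice.

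**Figure D4:**
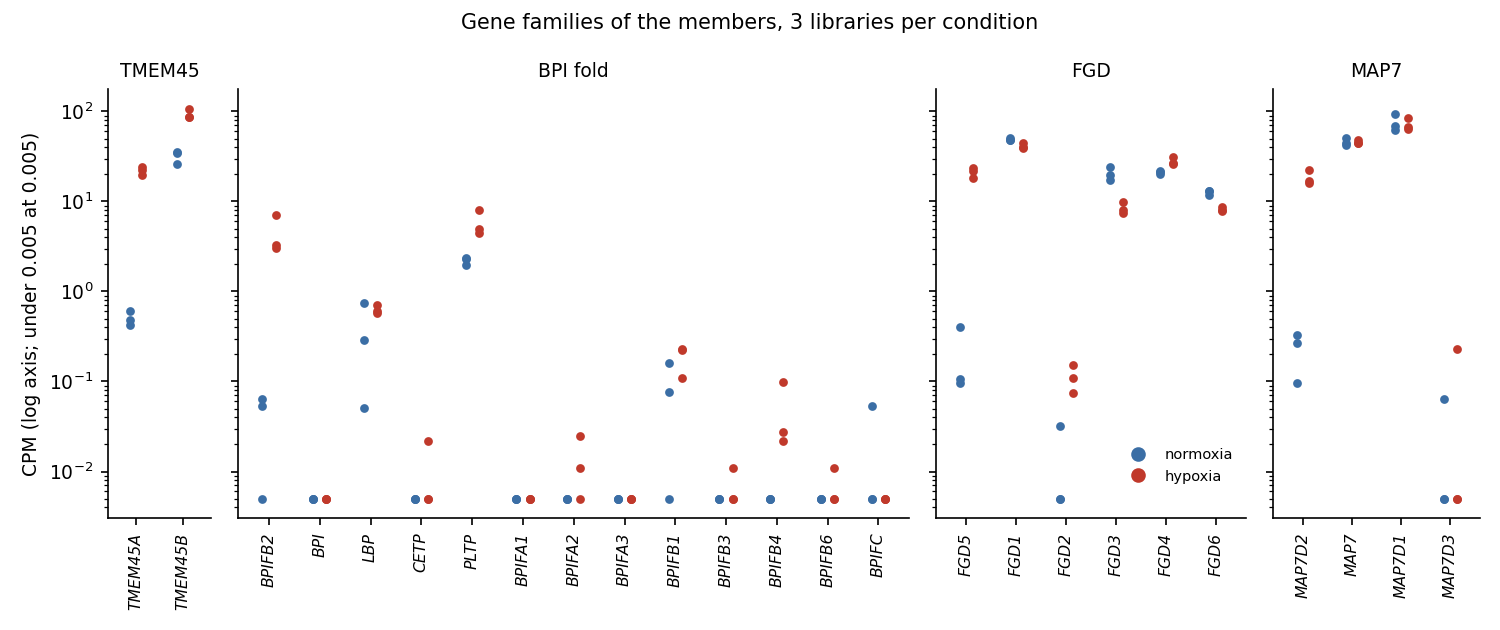
CPM of each family member in each of the 3 normoxia (blue) and 3 hypoxia (red) libraries, on a log axis, with values under 0.005 drawn at 0.005. Relatives such as MAP7 (46 and 45.6 CPM) and FGD4 (21.2 and 28.1 CPM) are expressed in both conditions, and most BPI fold genes are near 0 in both.

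Neighbours were taken as all genes with counted exons within 250 kb of a member. They numbered 34, of which 18 were tested, with 7 higher, 5 lower and 6 not called, where 30.4% of all tested genes were higher and 29% lower. The median log2 fold change of the 18 was -0.1, against 0.03 for all tested genes.

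Beside TMEM45A, 5 of 7 neighbours were tested. TOMM70, a receptor for protein import into mitochondria, was 91.2 kb away on the opposite strand and fell from 282 to 191 CPM (log2 fold change -0.56, SE 0.07, adjusted p = 0.000572). TBC1D23, a Golgi protein for vesicle capture, rose from 41.2 to 52.6 CPM (0.35, SE 0.1, adjusted p = 0.0204). The call of TBC1D23 was lost without normoxia replicate 1 or 3 or hypoxia replicate 1 or 2 (adjusted p from 0.059 to 0.0843). NIT2 did not pass (-0.22, adjusted p = 0.137), but did with the replicate number as a block (-0.22, adjusted p = 0.00722). The nearest genes were LNP1, 36.3 kb to the left (-0.69, SE 0.29, adjusted p = 0.0698), and ADGRG7, 32.1 kb to the right, with 1 count in hypoxia replicate 3 and 0 in the other libraries.

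BPIFB2 sits at the left end of a cluster of its own family, and the cluster was all but silent. To its right within 250 kb lay BPIFB6, BPIFB3, BPIFB4, BPIFA2, BPIFA4P, BPIFA3 and BPIFA1, none with a count in normoxia. In hypoxia, BPIFB4 had 4, 1 and 2 counts, BPIFA4P 0, 4 and 1, and BPIFA2 1, 0 and 1. BPIFB6, only 7.94 kb from BPIFB2, and BPIFB3 each had 1 count in hypoxia replicate 3. BPIFB2 itself had 133, 112 and 649 counts in those libraries. SUN5, 3.14 kb to the left on the opposite strand, had 1 count in hypoxia replicate 1 and 0 elsewhere.

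Of the 3 tested neighbours of BPIFB2, MAPRE1, which encodes the microtubule end-binding protein EB1, fell from 323 to 233 CPM (log2 fold change -0.47, SE 0.09, adjusted p = 0.00238). EFCAB8 rose from 0.152 to 0.363 CPM, on 8, 7 and 2 counts in normoxia and 12, 15 and 35 in hypoxia (1.21, SE 0.42, adjusted p = 0.0373). This call was lost with DESeq2 (adjusted p = 0.118), with no filter on low counts (0.0574) and on leaving out any single library (0.0575 to 0.103). EFCAB8 also passed the filter on low counts only through its hypoxia libraries. DNMT3B, a DNA methyltransferase, did not pass (-0.29, SE 0.16, adjusted p = 0.15).

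Beside FGD5, 7 of 8 neighbours were tested. NR2C2, an orphan nuclear receptor 13 kb to the right, rose from 58.5 to 81.5 CPM (log2 fold change 0.48, SE 0.07, adjusted p = 0.00104), and CCDC174 rose from 27.4 to 49 CPM (0.84, SE 0.14, adjusted p = 0.00184). FGD5-AS1, a long noncoding RNA 8.21 kb to the right on the opposite strand, had 273 CPM in normoxia and 227 CPM in hypoxia (-0.27, SE 0.09, adjusted p = 0.0369). It did not pass with upper-quartile scaling (adjusted p = 0.3) or without normoxia replicate 1 or 2 or hypoxia replicate 1 or 2 (0.0726 to 0.121). FGD5-AS1 was thus already abundant in normoxia, where FGD5 had 16, 4 and 3 counts. The strand setting of the counting is not given in the sources used here, but the counted exons of the 2 genes do not overlap. LINC02011, the nearest gene to the left at 7.55 kb, had 0 counts in normoxia and 1, 1 and 5 in hypoxia.

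Calls on 2 low neighbours of FGD5 depended on single libraries. C3orf20, with 19, 20 and 9 counts in normoxia and 35, 29 and 67 in hypoxia, passed as higher (log2 fold change 0.84, SE 0.29, adjusted p = 0.038) but not with DESeq2 (0.09), with no filter (0.0581) or without normoxia replicate 1 or 3 or hypoxia replicate 1 or 2 (0.0827 to 0.121). The pseudogene COL6A4P1, which may share reads with other collagen genes, passed as lower (-0.95, SE 0.32, adjusted p = 0.0328). It did not with upper-quartile scaling (0.068) or without any single library other than normoxia replicate 3 (0.0545 or more). MRPS25 passed as lower with the replicate number as a block (-0.14, adjusted p = 0.0436) and not without it (-0.14, adjusted p = 0.232).

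Beside MAP7D2, 3 neighbours were tested, and 2 were called higher and 1 lower, in a test that called 30.4% of all genes higher and 29% lower. SH3KBP1, which encodes an adaptor for receptor endocytosis and lies 119 kb to the left on the same strand, had 17, 23 and 15 counts in normoxia and 290, 183 and 483 in hypoxia. Its level rose from 0.511 to 5.82 CPM (log2 fold change 3.5, SE 0.25, adjusted p = 5.64e-05), the largest change among the 18 tested neighbours. BCLAF3, 36.4 kb to the left on the same strand, rose from 20.5 to 39.3 CPM (0.94, SE 0.11, adjusted p = 0.000374). EIF1AX, a translation initiation factor 7.52 kb to the right, had 166 CPM in normoxia and 136 CPM in hypoxia (-0.29, SE 0.07, adjusted p = 0.0105) and did not pass with upper-quartile scaling (-0.13, adjusted p = 0.141). The microRNA gene MIR23C lies in an intron of MAP7D2 on the same strand, at chrX:20035206-20035305. It had 0 counts in the 3 normoxia libraries and 8, 5 and 16 in hypoxia, too few for the test, and it was picked out after its values were seen. The counts come from RNA-seq libraries and were assigned to the precursor's interval, so they are not a measure of mature microRNA.

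**Figure D5:**
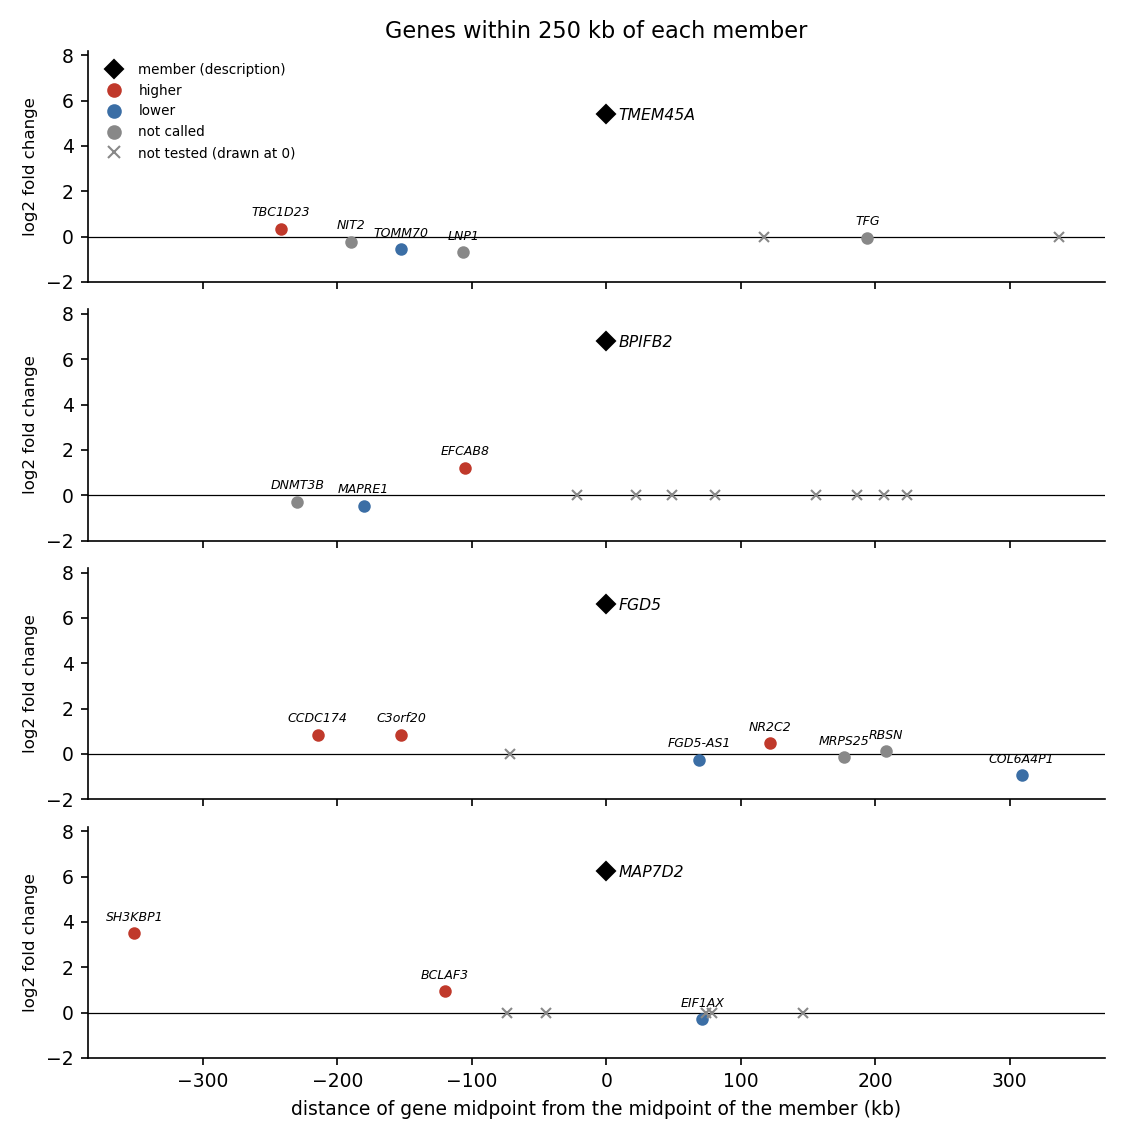
Log2 fold change (hypoxia over normoxia) of the genes within 250 kb of each of the 4 genes, against the distance in kilobases between gene midpoints, in 1 panel for each gene, with untested genes as crosses at 0. The 4 genes, drawn as a description, lie at 5.43 to 6.82, and the highest neighbour is SH3KBP1 at 3.5.

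A list of 28 known HIF targets was read from the same test, and all 28 were tested. In hypoxia 26 were higher and 1 was lower, against 30.4% and 29% of all tested genes, and the median log2 fold change was 2.36. The list gives the response of the best known oxygen-regulated genes in these libraries. The largest changes were those of EGLN3, a HIF prolyl hydroxylase (log2 fold change 5.51, SE 0.4, adjusted p = 6.65e-05), LOX, a collagen cross-linking enzyme (5.45, SE 0.24, adjusted p = 1.93e-05), and CA9, a carbonic anhydrase at the cell surface (5.29, SE 0.39, adjusted p = 6.81e-05). CA12, another surface carbonic anhydrase, fell from 916 to 338 CPM (-1.44, SE 0.08, adjusted p = 3.42e-05). STC2, a secreted glycoprotein, went from 1199 to 1162 CPM and did not pass (-0.05, SE 0.09, adjusted p = 0.694).

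Among these targets, CA9 and SLC2A3 also had few reads in normoxia. CA9 had 37, 26 and 6 counts in normoxia and 854, 783 and 2880 in hypoxia, or 0.61 and 24.7 CPM on average, where TMEM45A had 0.504 and 22 CPM. SLC2A3, a glucose transporter, had 5, 3 and 4 counts in normoxia and 79, 88 and 183 in hypoxia (log2 fold change 4.21, SE 0.3, adjusted p = 5.77e-05). Both were set beside the 4 genes after their values were seen. Neither passed the filter on low counts through its normoxia libraries alone, so neither could readily have been called lower.

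Markers of other cell types in which the 4 genes are known were also read. Of 12 endothelial markers, 2 were tested and both were higher (30.4% of all tested genes were), EGFL7 (log2 fold change 1.23, SE 0.18, adjusted p = 0.000998) and ESAM (1.08, SE 0.25, adjusted p = 0.00668). The summed level of the list was 10.4 to 11.1 CPM in normoxia and 20.4 to 31.5 CPM in hypoxia. Among the untested markers, PECAM1 had 1, 0 and 1 counts in normoxia and 1, 2 and 5 in hypoxia. KDR had 1, 0 and 1 counts in normoxia and 3, 8 and 13 in hypoxia. CDH5 had 0, 0 and 8 counts in normoxia and 12, 6 and 32 in hypoxia. TEK, EMCN and ERG had none in normoxia and at most 2 in a hypoxia library. The part of these markers in the FGD5 level was not tested.

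Of 12 neuronal markers, 4 were tested, with 3 higher and 1 lower, against 30.4% and 29% of all tested genes. TUBB3, a tubulin, had the largest rise (log2 fold change 1.25, SE 0.22, adjusted p = 0.00194), and SYN1, a synaptic vesicle protein, fell from 5.73 to 1.25 CPM (-2.22, SE 0.56, adjusted p = 0.0107). The summed level was 29.9 to 55.5 CPM in normoxia and 69 to 91.5 CPM in hypoxia, and its part in the MAP7D2 level was not tested. SNAP25, NEFL, NEFM, STMN2 and ELAVL4 had 0 counts in all 6 libraries.

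Of 10 airway secretory markers, 3 were tested, with 1 higher and 2 lower, against 30.4% and 29% of all tested genes. PIGR, the transporter of secreted antibodies, was higher (log2 fold change 1.22, SE 0.43, adjusted p = 0.0408), AGR2 was lower (-1.8, SE 0.14, adjusted p = 8.15e-05), and so was SCGB3A1 (-1.12, SE 0.32, adjusted p = 0.0171). The summed level, most of it AGR2, was 555 to 725 CPM in normoxia and 166 to 218 CPM in hypoxia. Among the untested markers, SCGB1A1, a secretoglobin of airways, had 1 count in hypoxia replicate 3 and 0 in the other libraries. LTF had 0, 1 and 2 counts in normoxia and 3, 16 and 23 in hypoxia. The part of these markers in the BPIFB2 level was not tested.

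Of 12 markers of cornified keratinocytes, 7 were tested, with 4 higher, 0 lower and 3 not called, against 30.4% higher and 29% lower among all tested genes. CASP14, a protease of cornification, had the largest change (log2 fold change 4.91). It had 10, 16 and 13 counts in normoxia and 363, 326 and 1383 in hypoxia. CASP14 has the same near-silent pattern as the genes chosen here, so its change is a description. DSC1 (3.16, SE 0.25, adjusted p = 8.08e-05), IVL (2.22, SE 0.33, adjusted p = 0.000974) and TGM3 (1.96, SE 0.67, adjusted p = 0.0357) were also higher. CASP14, DSC1 and TGM3 passed the filter on low counts only through their hypoxia libraries. A call as lower was hardly possible for them, which partly sets the split of 4 higher and 0 lower. With the replicate number as a block, TGM1 passed as higher (0.65, adjusted p = 0.0387), and KRT10 (-0.43, adjusted p = 0.000158) and SPINK5 (-1.29, adjusted p = 0.00353) as lower. The summed level, most of it KRT10, was 61.2 to 94.8 CPM in normoxia and 65.7 to 109 CPM in hypoxia, and its part in the TMEM45A level was not tested. Among the untested markers, KRT1, LOR and DSG1 had at most 2 counts in a library. CDSN had 0 counts in each normoxia library and 5, 6 and 11 in hypoxia. FLG had 0, 0 and 2 counts in normoxia and 1, 2 and 10 in hypoxia.

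Of the 9 luminal markers, all tested, 0 were higher and 4 were lower in hypoxia, where 30.4% and 29% of all tested genes were, and the 4 ran from FOXA1 (log2 fold change -0.55, SE 0.09, adjusted p = 0.00183) to PGR, the progesterone receptor (-2.93, SE 0.21, adjusted p = 6.62e-05). With the replicate number as a block, KRT8 (-0.51, adjusted p = 2.54e-05) and KRT18 (-0.35, adjusted p = 0.000573) also passed as lower and CDH1 as higher (0.2, adjusted p = 0.00733). The part of these shifts in the levels of TMEM45A, BPIFB2, FGD5 and MAP7D2 was not tested.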

How the data were processed

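The authors removed adapters, aligned reads with STAR to GRCh37 (hg19), used featureCounts on RefSeq gene models, and deposited 1 table of raw counts per library without normalization. The submitters' processing notes name STAR 2.5.2a, featureCounts 1.5.1 and FastQC 0.11.5. Whether counting used strand, and how multiply mapped reads were handled, is not given in the sources used here. The library preparation was stranded, and the labels and the methods text name different RNA kits.

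Counts were analysed with R 4.3.3 and edgeR 4.0.16. Genes were kept by filterByExpr (minimum count 10, minimum total count 15), scaled with TMM, and fitted by robust quasi-likelihood with condition as the only term. The exact test that the study's methods name, DESeq2 1.42.0, other scalings, no filter, a replicate block and each library left out were alternatives. Leaving out both libraries numbered 3 was added after the data were seen. All fits cover every gene tested, and the procedure was tested on simulated data. The simulation changed 198 of 15518 tested genes and held no replicate effect. It therefore does not cover a change of most genes, a shift with scaling or a likeness within replicate numbers. Figures were drawn with matplotlib 3.10.9.

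Same-numbered libraries were taken as pairs by their numbers, and the study's methods describe paired samples. Deviations from the condition means correlated within the replicate numbers 1, 2 and 3 (0.338, 0.422 and 0.575 across genes). Correlations between libraries of different numbers were not kept, so these 3 values alone cannot show that the numbers mark true pairs. With the replicate number as a block, edgeR's common biological coefficient of variation was 0.0751, against 0.141 without it.

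The members and lists were chosen with earlier results of these data known. Besides the 4 genes, the text names relatives and neighbours that passed the test or lie nearest, the 3 genes nearest in pattern to each, the 3 largest changes and every gene not called higher among the HIF targets, and the highest and lowest signed log2 fold change among the called genes of each marker list. Others named were chosen after their values were seen. Protein sequences were not used here.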

Additional observations from a re-analysis of the deposited data

How the results depend on the processing

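The direction of each relative and neighbour named as called was kept under all alternatives tried, and of their values under these alternatives 197 stayed past the threshold and 37 did not (named beside the genes, except that without both libraries numbered 3 EFCAB8 had an adjusted p of 0.124 and C3orf20 of 0.0577). The HIF targets numbered 26 higher and 1 lower under each. With the replicate block, 5741 genes were higher and 5519 lower, against 4754 and 4537 without it, and neighbours numbered 7 higher and 7 lower. The block ended no call among the relatives, neighbours and lists, and the calls it added stand beside the genes. Among the neighbours, upper-quartile scaling left 2 lower. Leaving out 1 library left 4 to 7 higher and 3 to 6 lower. A window of 100 kb held 4 higher and 3 lower, and one of 500 kb held 14 higher and 8 lower. These counts are small, and the windows hold different numbers of genes by construction.

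Of the genes at or under a normoxia limit, 16 reached 5 CPM in hypoxia with the limit of 0.5 CPM, 0 with 0.1 CPM and 39 with 1 CPM. With a floor of 1 count in place of 3, 11 of the 12 normoxia values of the 4 genes were above it. On leaving out 1 library, the fitted log2 fold change ran from 5.32 to 5.58 for TMEM45A, 6.2 to 7.31 for BPIFB2, 6.28 to 7.64 for FGD5 and 5.93 to 6.58 for MAP7D2. Under the other settings it ran from 5.26 to 5.58, 5.82 to 6.96, 6.3 to 6.78 and 6.03 to 6.4. The depth of the normoxia libraries limits these values, since 5 of 12 rest on 3 counts or fewer.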

Other observations

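Other genes at or under 0.5 CPM in every normoxia library that reached 5 CPM in every hypoxia library were read beside FGD5 and MAP7D2. They were chosen by the same values, so these are descriptions without a test. HEPHL1, a ferroxidase of the ceruloplasmin kind, averaged 0.177 CPM in normoxia and 16 CPM in hypoxia. CYP26A1, which breaks down retinoic acid, went from 0.248 to 13.3 CPM, and PNMA2 from 0.121 to 9.1 CPM. PGF, a ligand of the VEGF family, went from 0.269 to 7.12 CPM, SERPINE2, a protease inhibitor, from 0.319 to 7.21 CPM, and RORA, a nuclear receptor, from 0.182 to 8.77 CPM. IGFBP3, which binds insulin-like growth factors, went from 0.0623 to 5.72 CPM. CSTA, a cystatin of the cornified envelope, went from 0.253 to 5.9 CPM and had the highest hypoxia level per kilobase of the 16, at 7.13 CPM. The remaining genes were CASP14, SLITRK6, FYN, PTAFR, BGN and CAPN8, with hypoxia means from 5.66 to 11 CPM.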
